A study of Mus musculus with 19 samples.

Results

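The genes described here encode nuclear subunits of respiratory complexes I, III and IV and of ATP synthase, read in mouse quadriceps. They were taken by name from the arrays, as every gene called Nduf followed by a, b, c, s or v and a number, Ndufab1, every gene starting with Uqcr, Cyc1, every gene starting with Cox followed by 4 to 8 and a letter, and every gene starting with Atp5, without Cox8b. This gave 82 of the 30214 gene names on the array, with 36 in complex I, 9 in complex III, 19 in complex IV and 18 named for ATP synthase. Ndufa4 was counted in complex IV, where the protein is now placed, and Atp5s, Atp5sl and the pseudogene Atp5c1-ps carry an ATP synthase name without being subunits. The study measured RNA of quadriceps, a fast-glycolytic muscle, in AR113Q mice, a knock-in model of spinal and bulbar muscular atrophy (SBMA) with an expanded polyglutamine tract, and in wild-type control (CTR) mice. All mice were congenic C57Bl6J males killed at 180 days of age. From 40 days of age the mice ate normal chow (NCD), a purified diet, or a diet rich in fat (HFD). One-colour Agilent arrays were read for 5 samples each of CTR-NCD, AR113Q-NCD and AR113Q-HFD and for 4 samples of CTR-HFD. The knock-in allele is carried in every tissue of the mouse and not in muscle alone. No source used here states whether each sample came from 1 mouse, so that p-values measure only the spread between these samples.

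Complexes I and III pass electrons from NADH and ubiquinol to cytochrome c, complex IV hands them to oxygen, and each of these complexes moves protons out of the mitochondrial matrix. ATP synthase lets the protons flow back and uses them to make ATP from ADP. In muscle these proteins are most abundant in slow-oxidative and fast-oxidative fibers, and complex IV contains several subunits that exist as a striated muscle isoform and a more widely made, liver-type isoform.

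Values are log2 signals relative to the 75th percentile of the array, so that 0 stands for that percentile, and a gene is represented by its brightest probe. The same comparisons were made after quantile normalization, which gives every array the same distribution of signals. A gene was called when limma gave a Benjamini-Hochberg adjusted p under 0.05 over all probes tested. The 75th percentile itself, before scaling, lay at 9.52 to 9.75 in CTR and 9.65 to 10.05 in AR113Q arrays on the NCD, and at 9.51 to 9.86 and 9.86 to 10.18 on the HFD, so that on each diet it was higher on average in the AR113Q arrays. Of the 82 genes, 79 were well above background on all 19 arrays and 81 were tested, Cox8c being well above background on only 2 arrays. No probe of these genes was saturated. The genes are abundantly expressed in muscle, and 71 of the 81 belonged to the brightest 10% of all genes. All 8 skeletal muscle markers were well above background on every array.

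On the NCD, few respiratory genes differed between AR113Q and CTR quadriceps, and those that did went in both directions. Cox8a and Cox6a1, subunits of complex IV, were higher in AR113Q-NCD, and 2 subunits of complex I, Ndufb4 among them, were lower. These 2 higher and 2 lower genes were 2.47% of the 81 each, against 8.31% of all genes tested called higher and 9.04% called lower. The median change over the 81 genes was -0.02, with 29 above 0, and the median over all 24741 genes tested was -0.06. After quantile normalization 14 of the 81 genes were called higher, 17.3% against 10.1% of all genes, and 1 was called lower, 1.23% against 8.24% of all genes. Their median was then 0.11, with 71 above 0, where the median of all genes was 0.01. The arrays of the genotypes did not overlap for 2 genes higher and 3 lower in AR113Q-NCD, against 7.4% and 8.05% of all genes, and after quantile normalization for 19 higher and 2 lower, against 8.95% and 7.35%. Cox8a and Cox6a1 were called higher under both scalings, and over all genes 7.87% were called higher and 7.68% lower under both.

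On the HFD, respiratory genes lay lower in AR113Q than in CTR quadriceps relative to the 75th percentile, and mostly did not after quantile normalization. Of the 81 genes, 32 were called lower, 39.5% against 10.2% of all genes, and 1, Cox8a, was called higher, against 7.74% of all genes. The median change was -0.24, with 3 genes above 0, where that of all genes was -0.08. With each array left out in turn, the number called lower ranged from 14 to 37, and the median change from -0.27 to -0.17. The number was 17 without CTR-HFD replicate 2, 14 without CTR-HFD replicate 3, 20 without AR113Q-HFD replicate 1 and 14 without AR113Q-HFD replicate 3. Without both HFD arrays of slide 3, CTR-HFD replicate 3 and AR113Q-HFD replicate 3, it was 8 and the median change was -0.12. Shares of all genes are not given for these fits with fewer arrays. After quantile normalization 4 genes were called lower, 4.94% against 7.97% of all genes, and 5 higher, 6.17% against 10.3% of all genes, with a median of -0.04 and 35 genes above 0. The arrays did not overlap for 0 genes higher and 25 lower in AR113Q-HFD, against 7.17% and 8.45% of all genes, and after quantile normalization for 5 higher and 5 lower, against 9.77% and 6.39%. Under both scalings Cox8a was called higher, Ndufs7, Ndufb4 and Atp5s were among those called lower, and over all genes 7.47% were called higher and 7.46% lower under both.

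**Figure D1:**
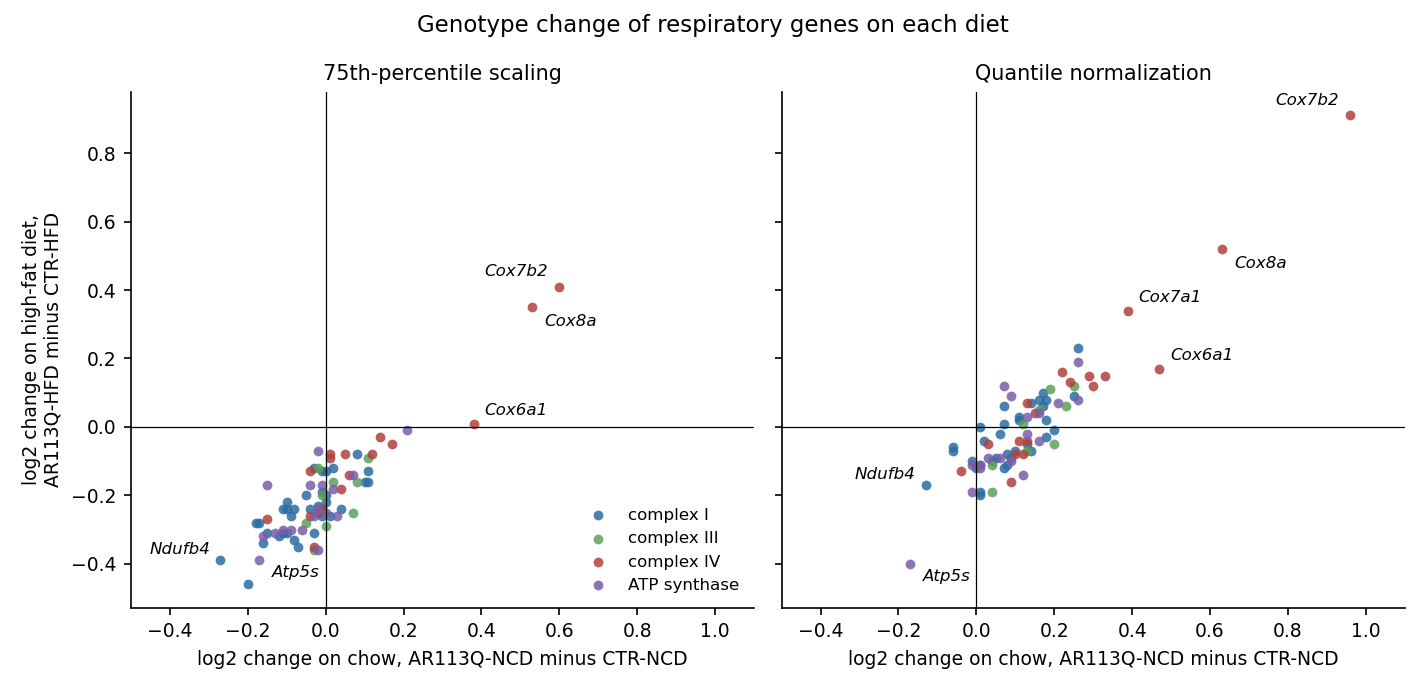
Change of each respiratory gene between AR113Q and CTR quadriceps on the NCD (horizontal axis) and on the HFD (vertical axis), both log2, after 75th-percentile scaling (left) and after quantile normalization (right). Each point is 1 gene coloured by complex, and Ndufa8 is left out because 1 array set its value, as is 1 gene not reported here. The cloud lies below the horizontal zero line on the left and shifts up and to the right on the right, while Cox8a stays at the upper right and Ndufb4 at the lower left.

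The difference between the scalings was also seen over bright genes in general. Over the brightest 10% of all genes the median change was -0.07 on the NCD and -0.13 on the HFD relative to the 75th percentile, and 0.04 and 0.03 after quantile normalization. Without any scaling between arrays, the median over the respiratory genes of the deviation from each gene's mean over the 19 arrays was -0.13 ± 0.09 (SD, n = 5) in CTR-NCD, 0.12 ± 0.12 (SD, n = 5) in AR113Q-NCD, -0.06 ± 0.12 (SD, n = 4) in CTR-HFD and 0.05 ± 0.09 (SD, n = 5) in AR113Q-HFD arrays. Before scaling, this mean was thus higher in AR113Q than in CTR on each diet, as was the mean 75th percentile. Bulk samples cannot tell a change in the number of muscle fibers from one in the RNA of each, and neither was tested.

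Cox8a, a small nuclear subunit of complex IV for which striated muscle also uses another gene, Cox8b, rose the most among the called genes. Its log2 signals were 5.19, 5.20, 5.27, 5.31 and 5.15 in CTR-NCD and 5.67, 5.88, 5.75, 5.73 and 5.76 in AR113Q-NCD arrays. Every AR113Q-NCD array lay above every CTR-NCD array. The difference was 0.53 (SE 0.09, 1.45-fold; limma, adjusted p = 0.000566; exact permutation test over arrays, 2-sided, p = 0.00794, the smallest that 5 arrays against 5 allow), and after quantile normalization it was 0.63 (adjusted p = 0.000226). On the HFD the signals were 5.14, 5.33, 5.54 and 5.10 in CTR-HFD and 5.70, 5.46, 5.66, 5.46 and 5.88 in AR113Q-HFD arrays. CTR-HFD replicate 3 lay above AR113Q-HFD replicates 2 and 4, and the other CTR-HFD arrays lay below all AR113Q-HFD arrays. The difference was 0.35 (SE 0.10, 1.28-fold; limma, adjusted p = 0.016; exact permutation test, 2-sided, p = 0.0476), and after quantile normalization 0.52 (adjusted p = 0.0019), with no overlap between the groups. Without CTR-HFD replicate 1 or 4 the adjusted p on the HFD was 0.0595 or 0.0634. A further probe of Cox8a differed by 0.59 on the NCD and 0.42 on the HFD (limma, adjusted p = 0.000692 and 0.0111). On each of the 5 slides that held both NCD groups, and on each of the 4 that held both HFD groups, Cox8a was higher in AR113Q, by 0.42 to 0.68 and by 0.12 to 0.78.

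Cox6a1, the liver-type form of a complex IV subunit that binds nucleotides, was higher in AR113Q-NCD and not called on the HFD. The signals were 5.93, 6.01, 5.99, 5.89 and 5.75 in CTR-NCD and 6.16, 6.53, 6.25, 6.30 and 6.26 in AR113Q-NCD arrays, which did not overlap. The difference was 0.38 (SE 0.10, 1.30-fold; limma, adjusted p = 0.0102), and after quantile normalization 0.47 (adjusted p = 0.00373). On the HFD the signals were 5.79, 6.10, 6.21 and 5.89 in CTR-HFD and 6.09, 5.89, 5.93, 5.88 and 6.24 in AR113Q-HFD arrays, and the groups overlapped over nearly their whole range. The difference was 0.01 (SE 0.10; limma, adjusted p = 0.958), and after quantile normalization 0.17 (adjusted p = 0.324). The difference between the effects on the 2 diets was -0.37 and did not pass the test of the interaction (limma, adjusted p = 0.999).

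Ndufb4, an accessory subunit in the membrane arm of complex I, was lower on both diets. The signals were 6.97, 6.92, 6.81, 6.88 and 7.09 in CTR-NCD and 6.66, 6.65, 6.58, 6.74 and 6.69 in AR113Q-NCD arrays. On the HFD they were 6.96, 7.04, 6.93 and 6.95 in CTR-HFD and 6.59, 6.64, 6.36, 6.61 and 6.69 in AR113Q-HFD arrays. The genotypes did not overlap on either diet. The change was -0.27 on the NCD (SE 0.07, 0.83-fold; limma, adjusted p = 0.00914) and -0.39 on the HFD (SE 0.07, 0.762-fold; limma, adjusted p = 0.000857). After quantile normalization Ndufb4 changed by -0.17 on the HFD (adjusted p = 0.0192) and by -0.13 on the NCD, where it missed the threshold (adjusted p = 0.0513) although the arrays still did not overlap. A second probe of Ndufb4 changed by -0.29 and -0.43 (limma, adjusted p = 0.00545 and 0.000457). Within slides, Ndufb4 differed by -0.40 to -0.15 on the NCD and by -0.56 to -0.26 on the HFD.

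**Figure D2:**
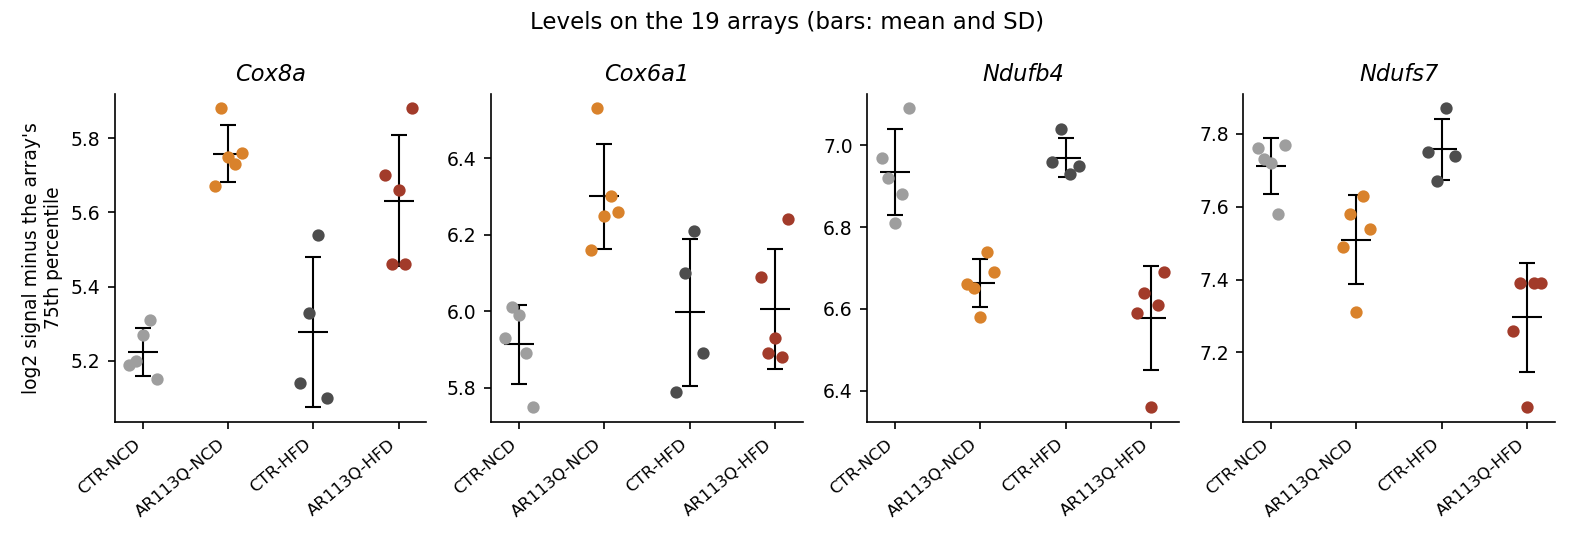
Log2 signal relative to the 75th percentile of the array for Cox8a, Cox6a1, Ndufb4 and Ndufs7 in CTR and AR113Q quadriceps on the NCD and on the HFD. Points are arrays, and bars give the mean and SD of 5, 5, 4 and 5 arrays. Cox8a is higher and Ndufb4 is lower in AR113Q on each diet, the Cox6a1 arrays separate on the NCD and overlap on the HFD, and the Ndufs7 arrays separate on the HFD.

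The regions before the starts of these genes are given because motifs of NRF1, GABPA, ERRalpha, YY1 and SP1, factors known to bind the promoters of many respiratory genes, were counted in them. The sequences are from RefSeq on GRCm38.p6, a build other than that of the probes, and each shows the 250 bases before the start, 5′ to 3′, on the strand of the gene. Capitals mark matches to the NRF1 motif, a palindrome with GCGC at each end around A and T, with the T free to be any base, and to GGGCGG, the SP1 motif, on either strand. The Cox8a region is chr19:7217617-7217866, the Cox6a1 region chr5:115348959-115349208 and the Ndufb4 region chr16:37654369-37654618, all on the minus strand.
Cox8a: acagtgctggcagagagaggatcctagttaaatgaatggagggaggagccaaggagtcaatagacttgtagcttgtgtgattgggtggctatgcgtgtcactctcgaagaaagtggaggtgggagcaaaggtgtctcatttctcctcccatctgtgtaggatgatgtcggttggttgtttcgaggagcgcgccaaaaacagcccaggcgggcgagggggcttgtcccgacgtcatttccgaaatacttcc
Cox6a1: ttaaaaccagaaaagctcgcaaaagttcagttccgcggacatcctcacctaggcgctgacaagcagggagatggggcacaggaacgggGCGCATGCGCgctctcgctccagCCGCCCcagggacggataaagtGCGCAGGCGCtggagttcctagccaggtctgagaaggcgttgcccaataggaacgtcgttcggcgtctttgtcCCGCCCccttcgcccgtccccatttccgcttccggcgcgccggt
Ndufb4: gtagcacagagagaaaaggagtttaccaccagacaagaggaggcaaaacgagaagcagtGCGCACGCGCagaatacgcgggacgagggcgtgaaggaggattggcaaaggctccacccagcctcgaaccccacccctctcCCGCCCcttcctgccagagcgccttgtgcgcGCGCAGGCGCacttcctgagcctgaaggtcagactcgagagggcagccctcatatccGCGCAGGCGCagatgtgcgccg
The Cox8a stretch shown held no match to the NRF1 and SP1 motifs, and a match to the ETS motif CCGGAAGT runs across its end, at the start of the gene. The Cox6a1 region held the full NRF1 motif, a further match with 1 free base, and 2 matches to the SP1 motif. The Ndufb4 region held 3 matches to the NRF1 motif with 1 free base and 1 to the SP1 motif.

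Promoter windows of 300 bases, from 250 before to 50 after the start, were used for 66 of the 82 genes, 63 by symbol and 3 by synonym. Motifs were searched on both strands. Windows on chromosome 18, which holds Atp5a1 and Ndufa2, were left out for the respiratory genes, and no such filter was set for all genes. The full NRF1 motif was in a window of 5 of the 66 genes, 7.58% against 1.07% of all 27025 genes in the table. With 1 free base, which includes the former, it was in 15, 22.7% against 5.19%. The YY1 motif GCCATNTTG was in 12, 18.2% against 2.9%. The ETS motif CCGGAAGT, which GABPA binds, was in 5, 7.58% against 4.31%, the ERRalpha motif TCAAGGTCA in 1, 1.52% against 0.466%, and the SP1 motif GGGCGG in 27, 40.9% against 38.2%. A match describes the letters of a window and not a bound site.

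Complex I takes electrons from NADH through a flavin and a chain of iron-sulfur clusters. On the NCD, 2 genes of complex I, Ndufb4 among them, were called lower relative to the 75th percentile, 5.56% against 9.04% of all genes. None of the 36 was called higher, against 8.31%, and the median was -0.06. On the HFD 20 of the 36 were called lower, 55.6% against 10.2% of all genes. None was called higher, against 7.74%, and the median was -0.24. After quantile normalization 2 were called higher and 1 lower on the NCD, 5.56% and 2.78% against 10.1% and 8.24% of all genes (median 0.08). On the HFD 1 was called higher and 3 lower, 2.78% and 8.33% against 10.3% and 7.97% (median -0.06). The 1 higher was Ndufa13, an accessory subunit named here after its values were seen, whose call turned with the scaling. Its signals relative to the 75th percentile were 8.30, 8.48, 8.49 and 8.34 in CTR-HFD and 8.10, 8.25, 8.03, 8.17 and 8.24 in AR113Q-HFD arrays, all lower in AR113Q (-0.24; limma, adjusted p = 0.0193). After quantile normalization all were higher in AR113Q (0.23, adjusted p = 0.00146). The 7 nuclear core subunits carry the flavin and the iron-sulfur clusters or line the path to ubiquinone. Relative to the 75th percentile they had a median of -0.31 on the HFD with 4 called lower. The 29 accessory subunits had a median of -0.24 with 16 called lower. This split is given for the 75th percentile only, and 3 of all 36 were called lower after quantile normalization.

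Ndufs7, which holds the last iron-sulfur cluster before ubiquinone, was lower on the HFD. Its signals were 7.75, 7.67, 7.87 and 7.74 in CTR-HFD and 7.26, 7.39, 7.05, 7.39 and 7.39 in AR113Q-HFD arrays, with no overlap. The change was -0.46 (0.726-fold; limma, adjusted p = 0.000798), and after quantile normalization -0.20 (adjusted p = 0.0354). On the NCD Ndufs7 changed by -0.20 (adjusted p = 0.0861) and by 0.01 after quantile normalization. Ndufs6, an accessory subunit with a zinc-binding fold, and Ndufv2, which holds an iron-sulfur cluster near the flavin, were lower on the HFD by -0.34 and -0.31 on the log2 scale (limma, adjusted p = 0.00473 and 0.00401) and were not called after quantile normalization. Without both HFD arrays of slide 3, Ndufs7, Ndufb4, Ndufs6 and Ndufv2 were still called lower on the HFD relative to the 75th percentile. Ndufs1, the largest subunit of the electron input module, changed by -0.24 on the HFD (adjusted p = 0.0765). Ndufv1, which binds NADH and the flavin, changed by 0.11 on the NCD and by -0.13 on the HFD, neither of them called, and was called higher on the NCD after quantile normalization (0.25, adjusted p = 0.0379). Ndufa8, an accessory subunit, could not be compared, as its signal was -6.75 on AR113Q-NCD replicate 2 and 1.55 to 2.45 on the others.

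Complex III oxidises ubiquinol and reduces cytochrome c. Of its 9 genes, Uqcrfs1, the Rieske iron-sulfur protein, was the only one called relative to the 75th percentile. It was lower on the HFD, 11.1% of the 9 against 10.2% of all genes. Its signals were 5.93, 6.03, 6.33 and 5.94 in CTR-HFD and 5.72, 5.78, 5.48, 5.73 and 5.78 in AR113Q-HFD arrays. The groups did not overlap, and CTR-HFD replicate 3 was the highest and AR113Q-HFD replicate 3 the lowest. The change was -0.36 (0.778-fold; limma, adjusted p = 0.0106), and it missed the threshold after quantile normalization (-0.19, adjusted p = 0.168) and without both HFD arrays of slide 3 (-0.21, adjusted p = 0.0698). Cyc1, which carries electrons to cytochrome c, changed by -0.16 on the HFD, and the core proteins Uqcrc1 and Uqcrc2 by -0.28 and -0.25 (limma, adjusted p = 0.0959 and 0.104). On the NCD the median of complex III was 0.00, with none called. After quantile normalization it was 0.16, with 2 called higher, 22.2% against 10.1% of all genes. On the HFD the medians were -0.20 and 0.01.

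Complex IV reduces oxygen. Its nuclear subunits surround a core that mitochondrial DNA encodes. On the NCD its 18 tested genes had a median change of 0.03. Cox8a and Cox6a1 were called higher, 11.1% against 8.31% of all genes, and none lower, against 9.04%. After quantile normalization the median was 0.19 and 8 were called higher, 44.4% against 10.1% of all genes. On the HFD the median was -0.11, with Cox8a called higher and 4 genes lower, Cox5b, Cox6a2, Cox7b and Ndufa4. The lower genes were 22.2%, against 10.2% of all genes. After quantile normalization the median was 0.10, with 3 called higher, 16.7% against 10.3% of all genes, and none lower. Cox5b, a matrix-side subunit that binds zinc, changed by -0.35 on the HFD (limma, adjusted p = 0.0302), Cox7b by -0.26 (adjusted p = 0.0345) and Ndufa4 by -0.24 (adjusted p = 0.0354), and none of the 3 was called after quantile normalization or without both HFD arrays of slide 3. Cox4i1 and Cox5a, which form the side of the complex that senses ATP, changed by -0.01 and -0.02 on the NCD and were called higher there after quantile normalization (0.33 and 0.30, adjusted p = 0.00329 and 0.000778).

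The isoforms of a subunit were set beside each other. Cox6a2, the striated muscle partner of Cox6a1, changed by -0.15 on the NCD (limma, adjusted p = 0.218). On the HFD its signals were 8.78, 8.95, 8.95 and 8.76 in CTR-HFD and 8.52, 8.63, 8.45, 8.60 and 8.72 in AR113Q-HFD arrays, all lower in AR113Q, with a change of -0.27 (adjusted p = 0.0306). After quantile normalization the same arrays were all higher in AR113Q, with a change of 0.16 (adjusted p = 0.0331), so that the direction of Cox6a2 depended on the scaling. Cox7a1, a striated muscle isoform, changed by 0.05 on the NCD and -0.08 on the HFD relative to the 75th percentile, and was called higher on both diets after quantile normalization (0.39 and 0.34, adjusted p = 0.00187 and 0.0077). Its liver-type partner Cox7a2 changed by 0.01 and -0.08 and was called under neither scaling. Cox7a2l, a paralogue of Cox7a1 and Cox7a2, was called higher on the NCD after quantile normalization (0.24, adjusted p = 0.00391). Cox6b1, the widely made form of its subunit, and Cox4i2, Cox6b2, Cox7b2 and Ndufa4l2, which other tissues use, were not called in either genotype comparison under either scaling, with changes on the NCD of 0.04, -0.04, 0.12, 0.60 and 0.01. Cox7b2 ranged from -8.63 to -5.59 over the arrays, at or near background on most of them.

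ATP synthase consists of the F1 head, where ATP is made, and the Fo part in the membrane, whose ring of c subunits turns with the protons. None of its 18 genes was called on the NCD relative to the 75th percentile (median -0.03). After quantile normalization 2 were called higher, 11.1% against 10.1% of all genes (median 0.09). On the HFD 7 were called lower, 38.9% against 10.2% of all genes, and none higher, against 7.74%, with a median of -0.25. After quantile normalization 1 was called lower and 1 higher, 5.56% each against 7.97% and 10.3%, with a median of -0.06. Atp5a1 and Atp5b, the subunits that alternate around the catalytic head, changed by -0.36 and -0.26 on the HFD (limma, adjusted p = 0.018 and 0.023). The signals of Atp5a1 were 6.69, 6.76, 7.14 and 6.78 in CTR-HFD and 6.50, 6.63, 6.27, 6.42 and 6.61 in AR113Q-HFD arrays, and those of Atp5b were 7.79, 7.94, 8.06 and 7.82 against 7.66, 7.74, 7.52, 7.56 and 7.72. The groups did not overlap for either gene, and in both CTR-HFD replicate 3 was the highest and AR113Q-HFD replicate 3 the lowest. After quantile normalization Atp5a1 changed by -0.14 and Atp5b by 0.07 on the HFD, neither called, and Atp5b was called higher on the NCD (0.21, adjusted p = 0.0105).

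In the stalks and the membrane part, changes on the HFD were below 0 relative to the 75th percentile, and not for every gene after quantile normalization. Atp5c1, the central stalk subunit, changed by -0.01 on the NCD and -0.17 on the HFD and was not called. Atp5f1, of the peripheral stalk, changed by -0.30 on the HFD (limma, adjusted p = 0.0155). The membrane subunits Atp5l and Atp5j2 changed by -0.32 and -0.30 (limma, adjusted p = 0.00748 and 0.0224). Atp5g1, Atp5g2 and Atp5g3, which encode the same mature c subunit and are known to have related copies in the genome, changed by -0.31, -0.17 and -0.25, with the brightest probe of Atp5g1 called (adjusted p = 0.0429). Their other probes differed, as the second probe of Atp5g2 was called lower (-0.29, adjusted p = 0.00589) and the second probe of Atp5g1 changed by 0.16 (adjusted p = 0.0937), and was called higher after quantile normalization (0.23, adjusted p = 0.0291). After quantile normalization the brightest probes of Atp5g1, Atp5g2 and Atp5g3 changed by 0.03, 0.12 and -0.02, and Atp5f1, Atp5l and Atp5j2 by -0.12, -0.11 and -0.09, none of them called. Atp5s, a mitochondrial protein once taken for a coupling factor of ATP synthase, was lower on the HFD under both scalings. Its signals were -1.23, -1.13, -1.06 and -1.45 in CTR-HFD and -1.71, -1.53, -1.78, -1.46 and -1.56 in AR113Q-HFD arrays. All AR113Q-HFD arrays were lower than the CTR-HFD arrays, but replicates 4 of the groups differed by 0.01. The change was -0.39 (0.762-fold; limma, adjusted p = 0.0135), and after quantile normalization -0.40 (adjusted p = 0.0195). Without both HFD arrays of slide 3, Atp5a1, Atp5b, Atp5f1, Atp5l, Atp5j2, Atp5g1 and Atp5s were not called.

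Averaged over both diets, 28 of the 81 genes were called lower in AR113Q, 34.6% against 16% of all genes, and Cox8a and Cox6a1 were called higher, against 13% of all genes. After quantile normalization 17 were called higher, 21% against 16.9%, and 3 lower, 3.7% against 14%. Of the 27 genes with several tested probes, none differed in call between its probes on the NCD, where few genes were called, and 11 did on the HFD. The sign of the change differed between probes for 12 of them on the NCD and 7 on the HFD. The same counts over all genes are not given.

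The HFD and NCD arrays were then compared within each genotype. No gene was called between AR113Q-HFD and AR113Q-NCD, between CTR-HFD and CTR-NCD or for the interaction of genotype and diet, where among all genes 0.0202% were called lower in AR113Q-HFD than in AR113Q-NCD (0.0243% after quantile normalization) and 0% in every other case. At an unadjusted p under 0.05, limma gave 23 of the 81 genes in AR113Q, 2 in CTR and 15 for the interaction, and 19, 1 and 4 after quantile normalization. Over all genes these were 6.67%, 8.39% and 4.6%, and 7.21%, 8.6% and 4.56%. AR113Q-HFD and AR113Q-NCD arrays did not overlap for 6 genes lower and 0 higher on the HFD, against 1.08% and 0.942% of all genes, and after quantile normalization for 13 lower and 0 higher, against 1.11% and 1.26%. CTR-HFD and CTR-NCD arrays overlapped for all 81 genes, where 1.46% of all genes were higher and 1.17% lower on the HFD without overlap, and 1.48% and 1.31% after quantile normalization. The medians of the respiratory genes were below 0 in AR113Q under both scalings, at -0.14 and -0.11, with 75 of the 81 genes below 0 under both, where the medians of all genes were 0 and 0. In CTR they were 0.05 and 0.01. The medians for the interaction were -0.20 and -0.13, with 79 genes below 0 under both scalings, where those of all genes were -0.02 and 0. Without both HFD arrays of slide 3 the medians were -0.10 in AR113Q and -0.08 for the interaction. These genes vary together across arrays, and their number is not a number of independent observations.

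Array by array, the median deviation of the 81 genes from their means was 0.04 ± 0.08 (SD, n = 5) in CTR-NCD, 0.02 ± 0.04 (SD, n = 5) in AR113Q-NCD, 0.10 ± 0.13 (SD, n = 4) in CTR-HFD and -0.14 ± 0.13 (SD, n = 5) in AR113Q-HFD. The AR113Q-HFD arrays ranged from -0.35 to 0.00, with replicate 3 the lowest, and the CTR-HFD arrays from 0.00 to 0.28, with replicate 3 the highest. After quantile normalization the means were -0.03 ± 0.08 (SD, n = 5), 0.09 ± 0.03 (SD, n = 5), -0.02 ± 0.12 (SD, n = 4) and -0.03 ± 0.06 (SD, n = 5). Within slides, the median difference of the respiratory genes between AR113Q-HFD and CTR-HFD was -0.63 to -0.01, below 0 on all 4 slides, and -0.29 to 0.14 after quantile normalization. Between AR113Q-HFD and AR113Q-NCD it was -0.32 to 0.02, and -0.25 to -0.02 after quantile normalization, below 0 on all 5 slides. Between AR113Q-NCD and CTR-NCD it was -0.14 to 0.15.

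**Figure D3:**
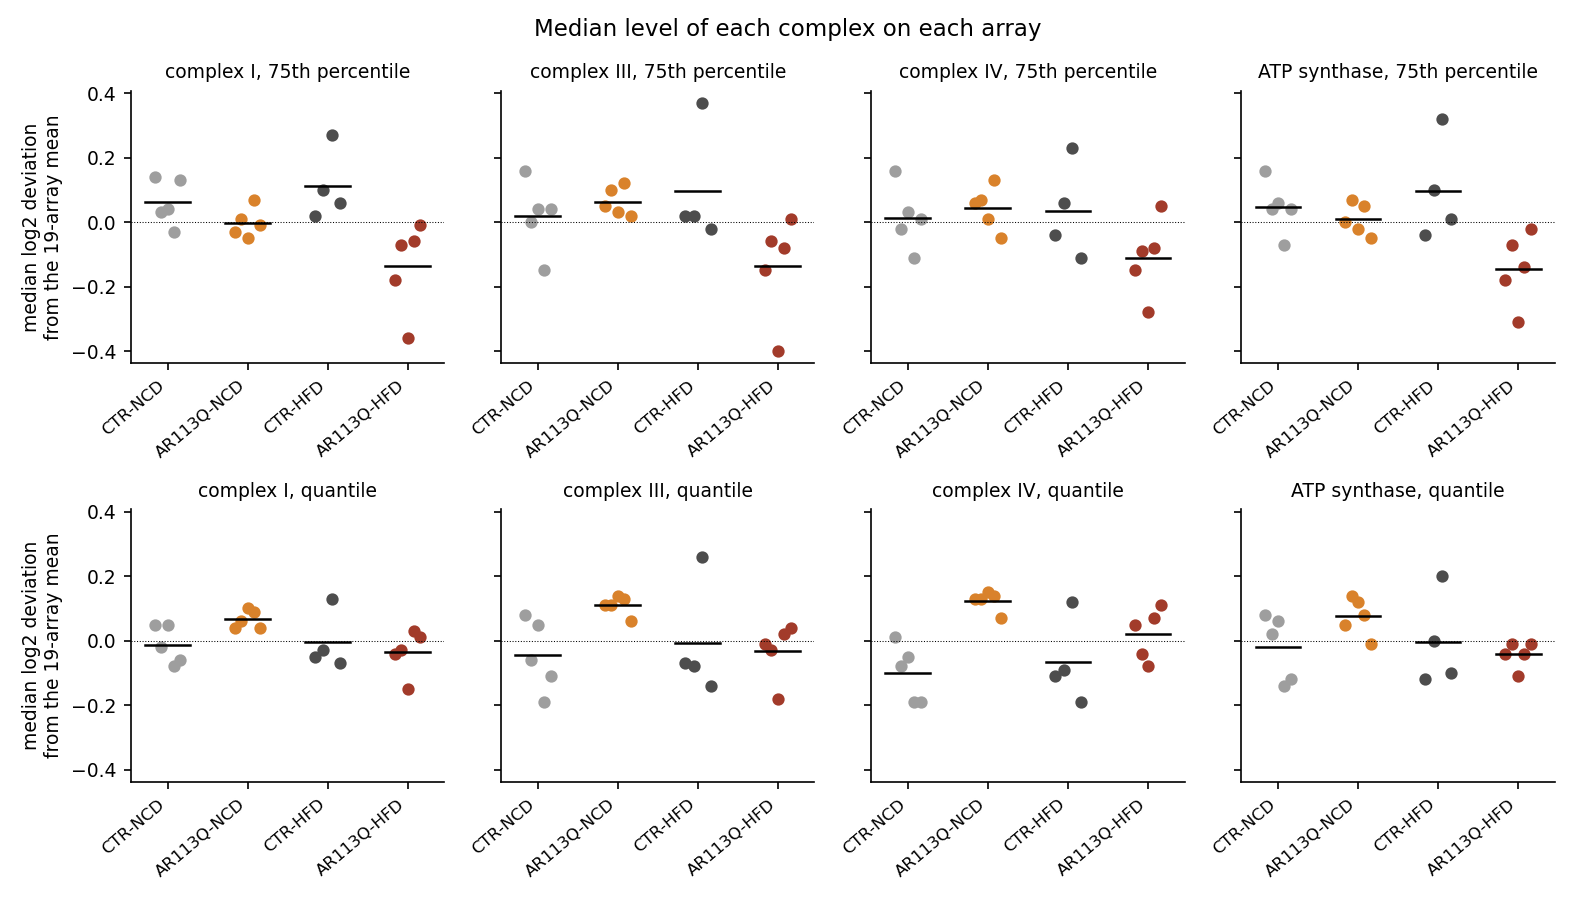
Median deviation of the respiratory genes from their means over 19 arrays (log2) for each array, by group and complex, after 75th-percentile scaling and after quantile normalization. Points are arrays and lines are group means. The AR113Q-HFD group mean is the lowest for each complex relative to the 75th percentile, though its arrays overlap with those of other groups. After quantile normalization it lies close to the CTR-HFD mean.

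Mitochondrial DNA encodes 13 further subunits of the same complexes, and most of their signals were lower in AR113Q relative to the 75th percentile. On the NCD their median change was -0.28 with 8 called lower, and on the HFD -0.41 with 12 called lower. Of all genes 9.04% and 10.2% were called lower, and 8.24% and 7.97% after quantile normalization. COX1, the catalytic subunit of complex IV, changed by -0.28 and -0.40 (limma, adjusted p = 0.0198 and 0.00266), and CYTB, the cytochrome b of complex III, by -0.31 and -0.42 (adjusted p = 0.0107 and 0.00203). After quantile normalization none was called on the NCD (median -0.05) and ATP8, of ATP synthase, was the 1 called on the HFD (median -0.12; ATP8 -0.23, adjusted p = 0.0371). The nuclear minus the mitochondrial median was -0.18 to -0.10 in CTR and 0.01 to 0.26 in AR113Q arrays on the NCD, and -0.14 to -0.09 and -0.04 to 0.20 on the HFD, relative to the 75th percentile. The genotypes did not overlap on either diet. After quantile normalization the ranges were -0.13 to 0.04, 0.02 to 0.18, -0.13 to -0.04 and -0.11 to 0.13, and they overlapped. The probes of COX2, COX3, ATP6, ATP8, ND3 and ND4L are placed by the files on a nuclear copy of mitochondrial DNA on chromosome 1 of mm9, and cannot be told apart from it.

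Complex II, the TCA cycle, glycolysis and the mitochondrial ribosome were compared in the same way. Of all genes, 8.31% were called higher and 9.04% lower on the NCD, and 7.74% and 10.2% on the HFD. After quantile normalization these shares were 10.1% and 8.24%, and 10.3% and 7.97%. The 4 genes of complex II, which feeds electrons from succinate to ubiquinone, had medians of 0.10 on the NCD and -0.11 on the HFD with none called, and 0.24 and 0.05 after quantile normalization, where Sdha and Sdhc were called higher on the NCD (0.22 and 0.26, adjusted p = 0.0447 and 0.018). Of 14 TCA cycle genes, 2 were called higher on the NCD (median 0.10) and 3 lower on the HFD (median -0.14). After quantile normalization 8 were called higher on the NCD (median 0.24) and 4 higher and none lower on the HFD (median 0.14), so that the direction on the HFD turned. Of 11 glycolysis genes, 10 were called lower on the NCD (median -0.42) and 9 on the HFD (median -0.45), and 3 on each diet after quantile normalization. Of 76 mitochondrial ribosomal protein genes, 4 were called higher and 7 lower on the NCD (median -0.02), and 3 higher and 21 lower on the HFD (median -0.14), and after quantile normalization 7 and 3 (median 0.04) and 5 and 11 (median -0.05). The inhibitor of ATP synthase Atpif1 was higher on the NCD (0.23, adjusted p = 0.0167) and changed by 0.17 on the HFD (adjusted p = 0.0922), and Cycs, the cytochrome c gene, was not called.

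**Figure D4:**
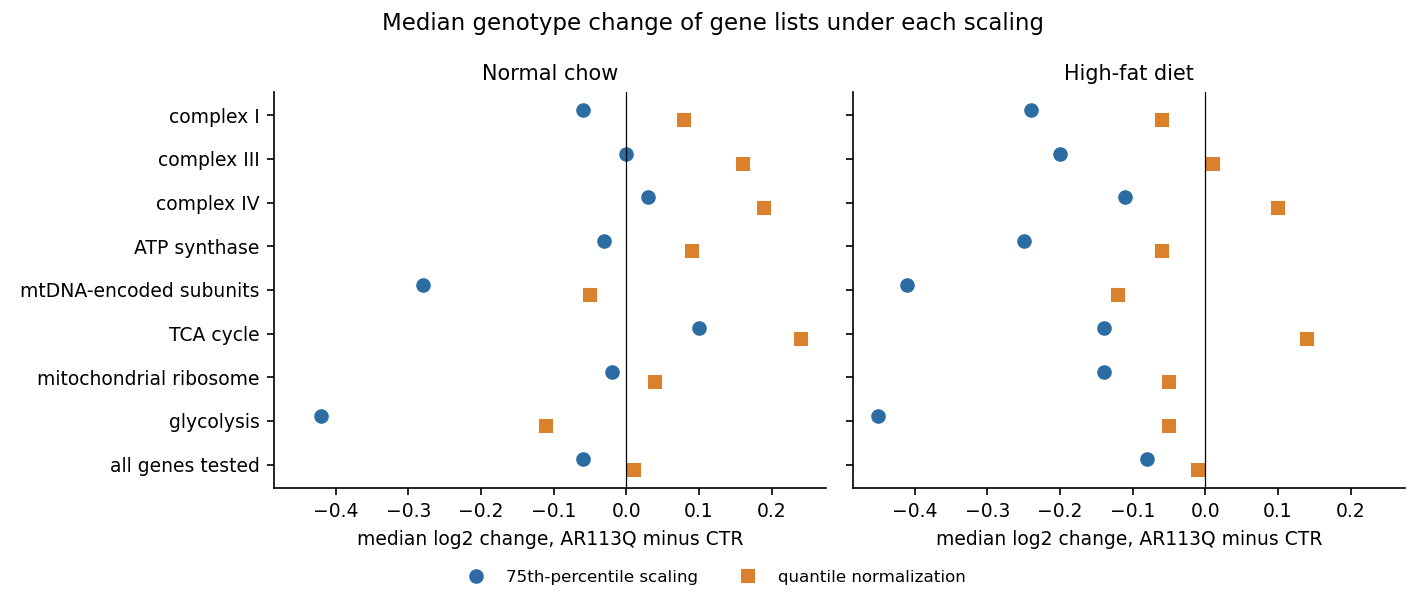
Median log2 change between AR113Q and CTR of the respiratory complexes and of neighbouring gene lists, on each diet and under each scaling. The glycolysis and mitochondrial DNA-encoded lists lie lowest relative to the 75th percentile, and most lists lie higher after quantile normalization.

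Fast fiber markers were lower in AR113Q on the same arrays relative to the 75th percentile. Slow fiber markers overlapped between the genotypes, with a higher median sum in AR113Q on each diet. The summed signal of the 8 fast fiber markers, relative to the 75th percentile on a linear scale, was 3300 to 3800 in CTR and 2480 to 2980 in AR113Q arrays on the NCD, and 3340 to 3910 and 2350 to 2720 on the HFD, with no overlap between genotypes. Of these 8, 7 were called lower on the NCD and 8 on the HFD, and 3 on each diet after quantile normalization. Among all genes 9.04% and 10.2% were called lower, and 8.24% and 7.97% after quantile normalization. The sum of the 8 general skeletal muscle markers was 2670 to 3280 in CTR and 2170 to 2580 in AR113Q arrays on the NCD, and 2690 to 3390 and 1930 to 2320 on the HFD, also without overlap. Of them 6 were called lower on each diet, and 3 on the NCD and 2 on the HFD after quantile normalization. The fast fiber and general lists share genes, Atp2a1 among them, so their sums are not independent. The sum of the 10 slow fiber markers was 37.6 to 423, 373 to 708, 23.5 to 512 and 32.7 to 299 in the same order, with none called. The sum of the 6 macrophage markers was 16 to 23.1 in CTR and 17 to 21.6 in AR113Q arrays on the NCD, and 17 to 20.8 and 16.2 to 20.7 on the HFD. That of the 8 brown adipocyte markers, some of which muscle also expresses, was 285 to 331, 258 to 335, 300 to 334 and 225 to 303 in the same order, with 1 called lower on the HFD. The 6 Schwann cell markers summed to 4.23 to 6.63, 6.97 to 7.9, 5.24 to 7.53 and 5.7 to 7.79, without overlap between genotypes on the NCD, and 1 of them was called higher there. None of the white adipocyte, red blood cell, macrophage, endothelial and cardiac muscle markers was called in either comparison relative to the 75th percentile. The part of fiber type or of other cells in the changes of respiratory genes was not tested.

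Assembly factors, which build the complexes without staying in them, were called lower under both scalings in 7 cases on the NCD and 12 on the HFD. Among all genes 7.68% and 7.46% were, and 9.04% and 10.2% were called lower relative to the 75th percentile. Of 39, 1 was called higher and 9 lower on the NCD and 2 higher and 14 lower on the HFD, with medians of -0.03 and -0.14, and after quantile normalization 4 higher and 7 lower and 4 higher and 12 lower. Atpaf2, a chaperone of the F1 head of ATP synthase, changed by -0.47 on the NCD and -0.51 on the HFD (SE 0.07 and 0.08; limma, adjusted p = 0.000209 and 0.000186). Cox20, which helps mature a mitochondrial subunit of complex IV, changed by -0.36 and -0.44 (adjusted p = 0.00114 and 0.000321), and Coa6 and Cox11, which deliver copper to complex IV, by -0.29 and -0.40 and by -0.31 and -0.37. Timmdc1, a complex I factor, changed by -0.40 and -0.42, and Ttc19, a complex III factor, by -0.26 and -0.43. These 6 were called lower and Cox19, another copper factor, higher (0.39 and 0.40, adjusted p = 0.0171 and 0.0211) on both diets and under both scalings.

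Of 11 regulators of respiratory genes, Tfb2m, a transcription factor of mitochondrial DNA, was lower on both diets and under both scalings, by -0.26 and -0.46 on the log2 scale relative to the 75th percentile (limma, adjusted p = 0.00906 and 0.000198). Yy1 was lower on the HFD (-0.26, adjusted p = 0.0028), Gabpa higher on the NCD (0.30, adjusted p = 0.0143), and Pprc1, a coactivator related to PGC-1, lower on both diets (-0.35 and -0.45, adjusted p = 0.0337 and 0.00993), Pprc1 under the 75th-percentile scaling only. Ppargc1a, the coactivator PGC-1alpha, changed by 0.21 and 0.57 (adjusted p = 0.66 and 0.17), and Nrf1 by 0.08 and -0.08 (adjusted p = 0.354 and 0.435).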

How the data were processed

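Quadriceps RNA was hybridized to 19 one-colour arrays on 5 slides, grouped by the sample labels. The authors deposited spot intensities from Agilent Feature Extraction 10.7.3.1, corrected for local background and for spatial trends but not normalized between arrays. They also deposited log2 values for 25944 transcripts, with nearly the same distribution on every array, and how these were normalized is not given in the sources used here.

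Intensities were taken to log2, outlier spots and control spots were left out, and the 43020 spots were averaged to 39429 probes. Each array was set relative to its 75th percentile, or all arrays were quantile-normalized. Tests covered the 32026 probes, of 24741 genes, for which at least 0.5 of the spots exceeded the software's background limit on 4 or more arrays. Precision is limited by the number of arrays. All 4 groups entered 1 fit with limma 3.58.1 (R 4.3.3; tables read with the package data.table, version 1.17.8) and p-values were adjusted by Benjamini-Hochberg over all probes. For single genes, 2-sided exact permutation tests over arrays were added. The fit was tested on simulated data. Promoters were searched with pandas 2.3.3, in Python 3.11.15, and matplotlib 3.10.9 drew the figures.

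The genes and lists were chosen with earlier results of these data known. Named genes were those called in a genotype comparison (up to 8 per complex, otherwise the 4 smallest adjusted p in each direction), the 2 largest rises and falls in each of these comparisons, catalytic and core subunits, isoform families, genes not above background in a group, and called genes of the lists. Some of these are not reported here, but are included in counts and medians. The results were recomputed after quantile normalization, median centring or normexp correction with an offset of 50, on the authors' values, without or with a stricter filter on dim probes, with the slide or the replicate number as a block, with array weights, with another variance estimate, with the mean of a gene's probes, with fold thresholds and with each array left out. The HFD arrays of slide 3 were left out together as an alternative chosen after seeing the data.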

Additional observations from a re-analysis of the deposited data

Results flagged for a closer look

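Among the named genes, 156 groups of arrays were searched for a single array far from the rest of its group, and 12 values were found, and among the medians of the complexes 20 groups gave 1. Chance gives about 1 in 20 groups. All values are log2 signals relative to the 75th percentile of the array.

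Several of them came from the third HFD replicates, which share slide 3. In the third AR113Q-HFD array Uqcrfs1 was 5.48 (others 5.72 to 5.78), Ndufs1 6.32 (others 6.61 to 6.72) and Ndufv1 6.93 (others 7.14 to 7.23), each the lowest of its group, while Atp5c1 was 2.31 (others 2.14 to 2.18), the highest. In the third CTR-HFD array Ndufs1 was 7.05 (others 6.78 to 6.79), Uqcrc2 6.89 (others 6.47 to 6.49) and the median deviation of complex III 0.37 (others -0.02 to 0.02), each the highest.

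The other values were Cox5b at 6.32 (others 6.50 to 6.55) and Ndufs7 at 7.58 (others 7.72 to 7.77) in CTR-NCD replicate 4, Ndufa8 at -6.75 (others 1.75 to 1.93) in the second and Cyc1 at 7.46 (others 7.28 to 7.31) in the fourth AR113Q-NCD array, Atp5c1 at 2.19 (others 2.39 to 2.43) in the first CTR-HFD array and Cox7a2l at 6.14 (others 5.85 to 5.93) in the fifth AR113Q-HFD array.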

How the results depend on the processing

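The number of respiratory genes called depended on the scaling between arrays, and the cause was not tested. Called higher and lower on the NCD were 2 and 2 genes relative to the 75th percentile, 14 and 1 after quantile normalization, 1 and 0 after median centring, 1 and 0 after normexp background correction, 14 and 2 with the authors' values and 0 and 0 with fold thresholds of 1.5 and 0.6 added. On the HFD they were 1 and 32, then 5 and 4, 0 and 0, 0 and 0, 4 and 4, and 0 and 0. Over both diets they were 2 and 28, then 17 and 3, 1 and 2, 1 and 0, 16 and 4, and 0 and 0, and without the filter on dim probes 1 was higher. Shares of all genes called are given for the 75th percentile and quantile normalization only, so the other counts cannot be set against all genes. Arrays also spread more under some alternatives. The SD of the respiratory median in CTR-NCD was 0.08 relative to the 75th percentile, 0.16 after median centring and 0.47 with normexp. In CTR-HFD it was 0.13, 0.15 and 0.13. With the HFD arrays of slide 3 left out, 8 were lower on the HFD and 16 over both diets, and the median change on the HFD was -0.12. The median change on the NCD (-0.02) was 0.11 after quantile normalization, 0.28 with normexp and 0.12 with the authors' values, that on the HFD (-0.24) was -0.04 after quantile normalization and -0.01 with the authors' values, and that of CTR-HFD against CTR-NCD (0.05) was 0.46 with normexp.

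Signs turned for Ndufb4 on the NCD with normexp (0.04), and on the HFD after quantile normalization and with the authors' values for Cox6a2 (0.16 and 0.15), Ndufa13, which was not among the named genes (0.23 after quantile normalization), Atp5g1 (0.03 and 0.05) and Atp5b (0.07 and 0.17). Cox8a on the NCD, 1.45-fold higher, was lost with the fold thresholds added. It was called higher under the 31 other alternatives, at adjusted p from limma of at most 0.03. On the HFD, Cox8a changed by 0.29 to 0.53 under these 31 and was called higher under 27. It was not called under the other 4, where the adjusted p from limma reached 0.782. With each array left out in turn, 2 to 2 genes were called higher and 2 to 3 lower on the NCD, 0 to 1 higher and 14 to 37 lower on the HFD, and 1 to 2 higher and 20 to 31 lower over both diets.

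With the replicate number as a block, 2 genes were higher and 2 lower on the NCD, 1 and 33 on the HFD and 1 and 26 over both diets, with none called for the diet or the interaction. Arrays of the same number lay on 1 slide, except CTR-HFD replicate 4, and their deviations correlated at -0.21 to 0.54 (median 0.24, over 0.1 in 19 of 27 pairs), against a median of -0.09 for the 108 pairs of different numbers. A block for the slide gave 2 higher and 2 lower on the NCD, 1 and 33 on the HFD and 2 and 25 over both diets.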
